A study of Homo sapiens with 4 samples.

Results

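Complex I of the mitochondrial respiratory chain (NADH:ubiquinone oxidoreductase) was followed through the nuclear genes whose symbols name its subunits, NDUFA, NDUFAB, NDUFB, NDUFC, NDUFS and NDUFV with a number, or its assembly factors, NDUFAF with a number. The rule chose 46 of 78932 Ensembl genes, with 1 row per symbol, and it used names only and no measured value. RNA was sequenced from RPMI 8226 cells, an established human line grown from a plasma cell myeloma, 72 h after transfection with an LNA ASO that targets the mRNA of CELF2, a protein that binds RNA and acts in splicing and mRNA stability. An LNA ASO is a short antisense oligonucleotide whose locked nucleic acid sugars tighten its pairing with a target RNA. The CELF2 LNA ASO was given at 5 nM and a control LNA ASO, whose dose the labels do not give, served as the comparison, with 2 libraries in each of the 2 groups. The number that ends each library's title is called a replicate here, but the labels do not say whether it marks a replicate or a different oligonucleotide, and in the second case the spread within a group would include differences between oligonucleotides. No genotype or second agent is named in the labels. Separate cultures are not mentioned in the labels, and p-values therefore reflect the spread between these libraries alone, which may be technical.

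Complex I takes electrons from NADH, passes them through a flavin and a chain of iron-sulfur clusters to ubiquinone, and uses the energy to pump protons across the inner mitochondrial membrane. Its peripheral arm is built from the N module, where NADH is oxidized, and the Q module, where ubiquinone is reduced, and its membrane arm holds the pumps. The nuclear genome encodes the core subunits of the peripheral arm, all accessory subunits and the assembly factors, while mitochondrial DNA encodes the core subunits of the membrane arm. Plasma cells and myelomas secrete large amounts of protein, and mitochondrial respiration is one of their sources of ATP.

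Many respiratory chain genes are known to carry sites for NRF1 and for the ETS family factor GABP near their start sites, so those letters were searched in the 250 bases before each start site, on both strands, in RefSeq promoters (GRCh38.p14). Of the 46 members, 39 had an entry, and a single start site was kept per symbol. The comparison was with all 27305 promoters kept this way, whether or not their genes were expressed. The GC content of the 250 bases had a median of 60.8% in members and 58% in all, and its part in the matches was not tested. The RefSeq start sites can differ from the annotated gene starts. The windows printed for NDUFA6, NDUFS7, NDUFA1, NDUFA13 and NDUFS3 lie inside their gene spans, and that of NDUFS1 crosses the edge of its span. The NRF1 core GCGCATGC, whose letters can overlap their own reverse complement, was found in 4 of the 39 member promoters (10.3%) and in 2.81% of 27305 promoters. These 4 are shown because all 4 genes were lower with the CELF2 ASO. Of all 39 members with an entry 32 were lower, so 4 of 4 is near the members' own share. Each line is 30 bases, 5′ to 3′ on the gene's strand, with the matched letters in capitals. The windows lie at chr22:42090920-42090949 (minus strand), chr3:120596167-120596196 (plus), chr5:1801350-1801379 (plus) and chr19:1383823-1383852 (plus), in the order printed.
NDUFA6: tctgtagatgaGCATGCGCagcacccaccg
NDUFB4: agagcacttcGCGCATGCGCatatcaccga
NDUFS6: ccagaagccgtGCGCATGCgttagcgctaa
NDUFS7: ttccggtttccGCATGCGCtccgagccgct

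The match nearest to a start site among these 4 was in NDUFS6, 46 bases before it. NDUFB4 held overlapping matches on both strands. The median log2 fold change was -1.20 over the 4 genes and -0.64 over the other member promoters, which is a description and was not tested.

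The ETS core CCGGAAG was found in 6 of 39 member promoters (15.4%) and in 8.82% of all promoters. These 6 are shown because they hold the only member that rose, NDUFS1, beside one of the largest falls, NDUFS3. The windows lie at chrX:119871773-119871802 (plus strand), chr19:19516195-19516224 (plus), chr6:96898021-96898050 (minus), chr19:14572073-14572102 (minus), chr2:206159584-206159613 (minus) and chr11:47578970-47578999 (plus).
NDUFA1: attccgtcgcttCTTCCGGagccgtacgtg
NDUFA13: taagtcacttccgcccgggaCCGGAAGtgt
NDUFAF4: cgccacctcccgCCGGAAGcggccctcgtg
NDUFB7: tgcctaaatgacCCGGAAGctgtgtctgac
NDUFS1: aggctggggccaCTTCCGGcggaactgcgg
NDUFS3: cgCTTCCGGctccacgtccgcCCGGAAGaa

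NDUFS3 held a match on each strand within this window. Of the 6 genes, 4 were lower and 2 were not, with a median log2 fold change of -0.37 against -0.76 over the other member promoters. The YY1 core AAGATGGCG was in none of the 39 windows and in 0.641% of all promoters, and the CCAAT box was in 9 member promoters (23.1%) and 33.0% of all. No member promoter held more than one of the NRF1, ETS and YY1 cores. A match is a string of letters and not a measured binding site.

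Levels are given as CPM, read counts scaled to a common TMM-adjusted library size, and differences as log2 fold changes of the CELF2 ASO group against the control group. The test was edgeR's two-sided quasi-likelihood test fitted to all 19511 genes that passed a filter on low counts, with Benjamini-Hochberg adjustment and a threshold of 0.05. Total counts were 23599190 to 29161298 per library. CELF2 itself had 128 and 128 CPM in the control libraries and 56.6 and 48.8 CPM in the CELF2 ASO libraries, which was 2.43-fold lower (log2 fold change -1.28, SE 0.09, edgeR adjusted p = 2.88e-05). The labelled cell type was checked against 9 plasma cell markers, all of them detected, whose summed level was 3167 to 3379 CPM in the control and 3311 to 3861 CPM in the CELF2 ASO libraries. Within that sum single markers moved both ways, 4 lower and 3 higher. SDC1 was 2.34-fold, TNFRSF17 2.00-fold and PRDM1 1.86-fold lower (edgeR adjusted p = 0.0121, 0.0445 and 0.000145), and CD38 was 2.43-fold and IRF4 1.71-fold higher (edgeR adjusted p = 0.00176 and 0.000113). The calls of SDC1 and TNFRSF17 were lost without a filter (adjusted p = 0.18 and 0.223), and that of TNFRSF17 also under scaling by totals (adjusted p = 0.0587) and with the GC and length correction (adjusted p = 0.0673). Other marker lists stayed far lower, with earlier B cell markers at 5.43 to 5.63 and 11.2 to 12.5 CPM, T and NK cell markers at 0.597 to 0.679 and 0.711 to 0.721 CPM, and myeloid markers at 5.00 to 5.28 and 2.7 to 2.93 CPM with LYZ and S100A8 at 0 in every library. The 6 stromal and epithelial markers, 2 of which are keratins, summed to 122 to 124 and 91.1 to 91.2 CPM. Single markers of that list moved both ways, and of the 4 tested, 2 were lower, 1 was higher and 1 did not pass. Of 4 earlier B cell markers tested, 3 were higher and 1 did not pass, and of 3 myeloid markers tested, 2 were lower and 1 did not pass. The part of these shifts in the results was not tested.

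Transcripts of complex I were mostly lower with the CELF2 ASO. All 46 members passed the filter, 37 (80.4%) were lower, only NDUFS1 was higher, and 8 did not pass the test. Over all genes tested, 55.5% were called, 27.9% lower and 27.5% higher. Among 12754 protein-coding genes 63.3% were called, 35.4% lower and 28.0% higher. The median log2 fold change of the members was -0.64, a level 1.55-fold lower, against 0.04 over all genes and -0.05 over protein-coding genes. Members ranged from -1.71 to 0.27 with an SD of 0.54 and a median SE of 0.10. Both CELF2 ASO libraries lay below both control libraries for 40 members and above them for 1, where 38.4% of all genes were non-overlapping in the lower and 41.2% in the higher direction. Among protein-coding genes these shares were 45.0% and 39.1%. A fall of at least 2-fold was called for 14 members (30.4%), against 11.1% of all genes and 12.2% of protein-coding genes.

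**Figure D1:**
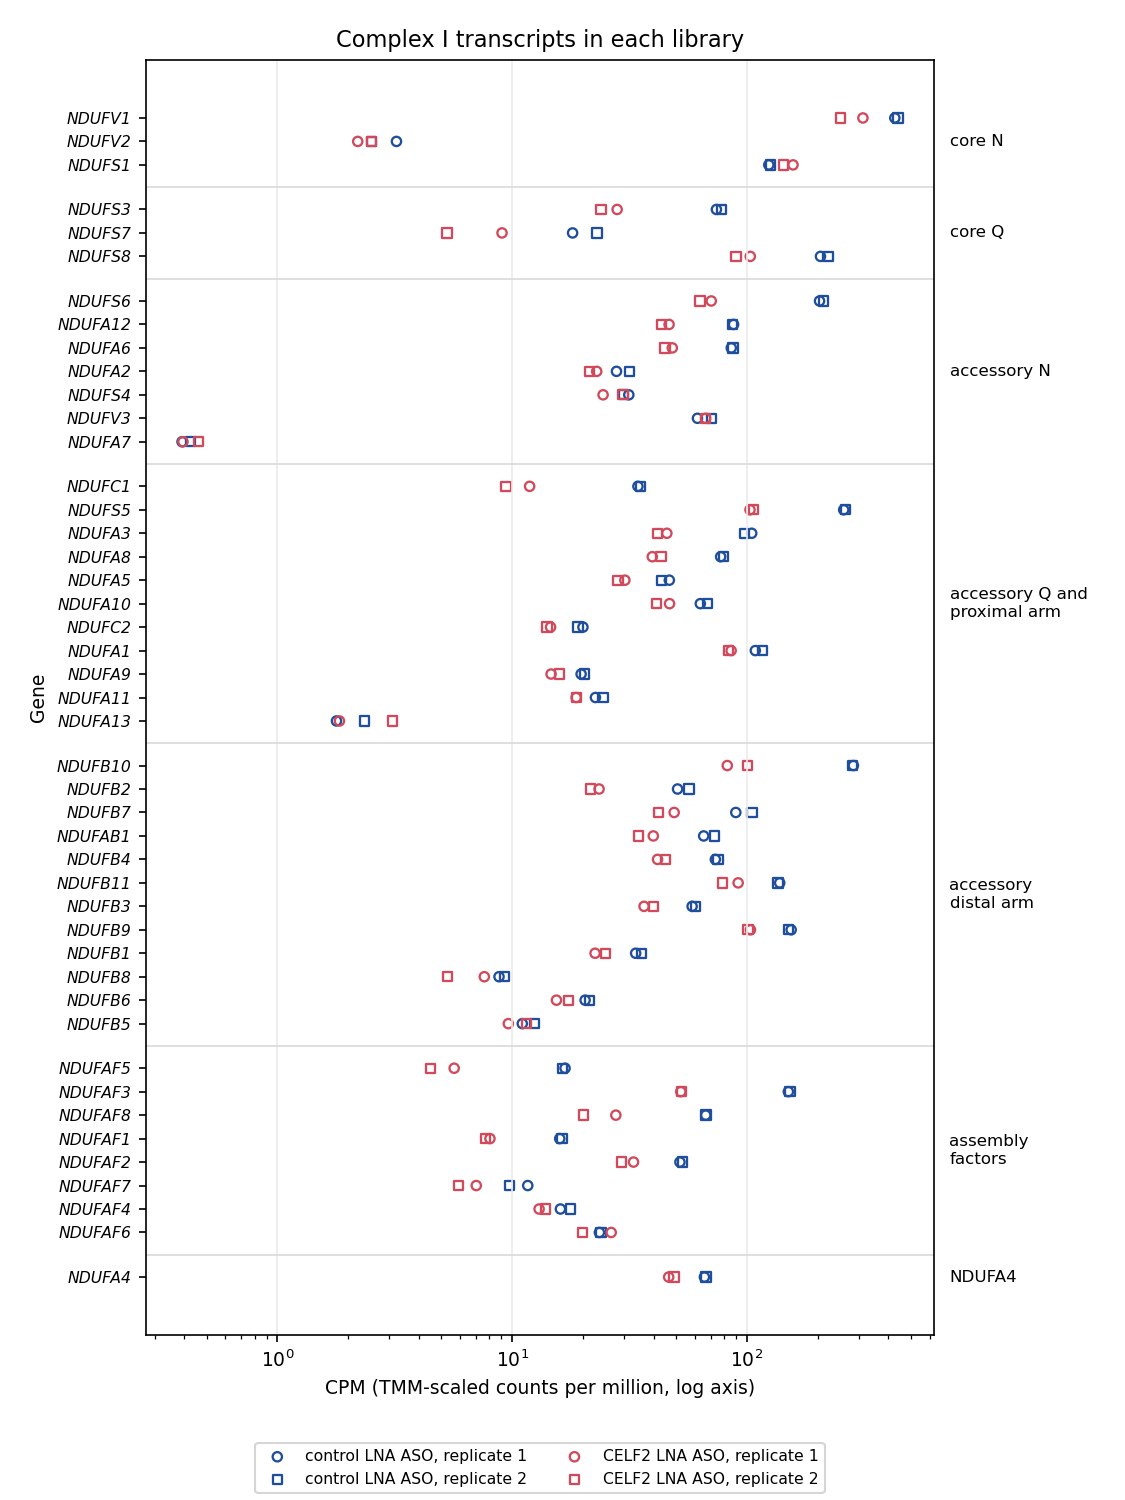
CPM (log axis) of 45 complex I genes in each of the 4 libraries, grouped by role. Blue marks are the control LNA ASO libraries and red marks the CELF2 LNA ASO libraries, with circles for replicate 1 and squares for replicate 2. Red marks lie to the left of both blue marks for 39 of them.

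Each CELF2 ASO library showed the lower levels on its own. Against the mean of the control libraries, the median log2 difference of the 46 members was -0.61 in replicate 1 and -0.74 in replicate 2, and in each of these libraries 41 members were below both controls. The medians over all genes were 0.03 and 0.02. Replicate 2 had the lower level of the pair for 28 members. Read counts measure a share of all RNA in bulk cultures, so fewer cells with these transcripts and less of them per cell cannot be told apart.

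**Figure D2:**
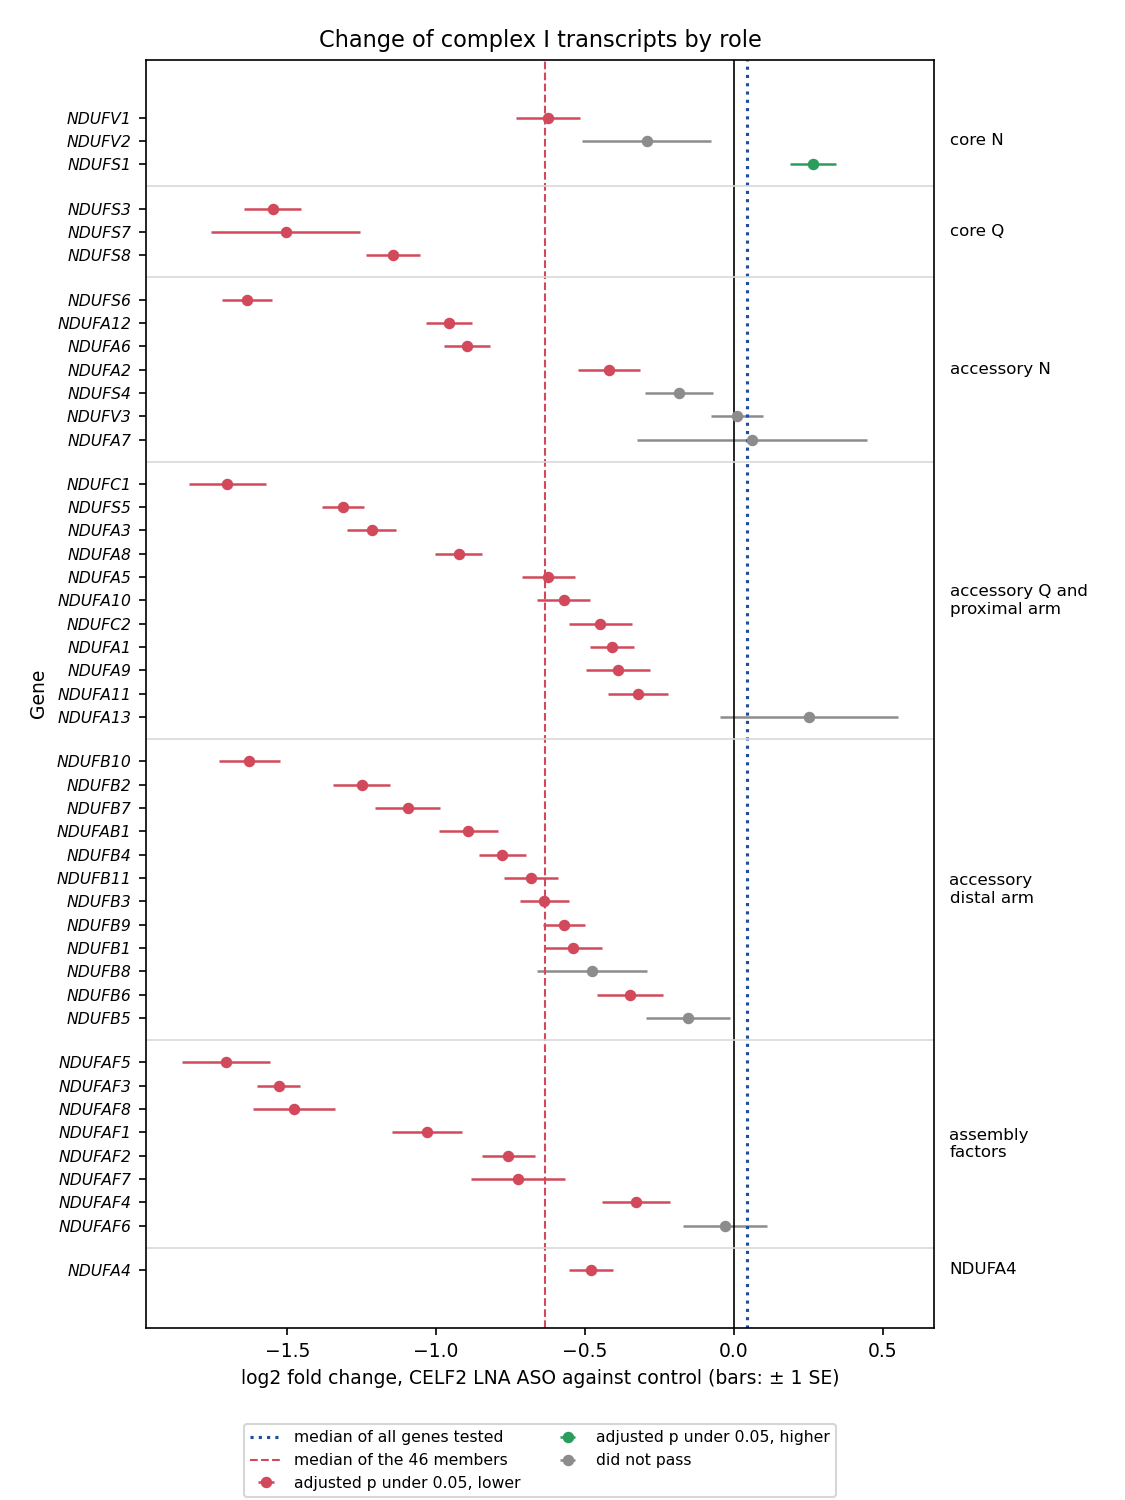
Log2 fold change of 45 members with bars of 1 SE, ordered by size within each role. Red points were lower, the green point (NDUFS1) was higher and grey points did not pass. The dashed line is the median of -0.64 over all 46 members and the dotted line the median of all genes tested, 0.04.

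The N module core did not move together. Of its 3 nuclear core subunits, 1 was lower, 1 was higher and 1 did not pass. NDUFV1, which binds the flavin and oxidizes NADH, had 426 and 439 CPM in the control libraries and 311 and 249 CPM in the CELF2 ASO libraries. Both CELF2 ASO values lay below both controls, a fall of 1.54-fold (log2 fold change -0.62, SE 0.11, edgeR adjusted p = 0.00206). NDUFS1 (ENSG00000023228, GRCh38 chromosome 2, 206114817 to 206159603, minus strand), the largest subunit and a carrier of iron-sulfur clusters, had 124 and 126 CPM in the control libraries and 157 and 143 CPM in the CELF2 ASO libraries. Here the groups separated the other way, with both CELF2 ASO values above both controls, 1.2-fold higher (log2 fold change 0.27, SE 0.08, edgeR adjusted p = 0.021). The call for NDUFS1 was lost without control replicate 1 (adjusted p = 0.289) or control replicate 2 (adjusted p = 0.228), with the correction for GC content and length (adjusted p = 0.125), without a filter (adjusted p = 0.0637) and with DESeq2 (adjusted p = 0.0818), while its sign stayed positive. NDUFV2, another iron-sulfur subunit, had only 90 and 59 counts under the control ASO and 61 and 60 under the CELF2 ASO, and it did not pass (log2 fold change -0.29, SE 0.22, edgeR adjusted p = 0.284).

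All 4 nuclear core subunits of the Q module fell, and their median was -1.33 on the log2 scale. NDUFS3 (ENSG00000213619, chromosome 11, 47565336 to 47584562, plus strand), a subunit present from the first steps of assembly, had 74.0 and 77.9 CPM in the control libraries and 28.0 and 23.9 CPM in the CELF2 ASO libraries. That was 2.93-fold lower (SE 0.10 on the log2 scale, edgeR adjusted p = 1.84e-05). NDUFS7 (ENSG00000115286, chromosome 19, 1383527 to 1395589, plus strand), which holds the cluster that hands electrons to ubiquinone, had 18.1 and 22.9 CPM in the control libraries and 9.05 and 5.27 CPM in the CELF2 ASO libraries. The values did not overlap, but the CELF2 ASO libraries differed widely from each other, and the fall of 2.84-fold carried the largest SE among the 8 largest falls (0.25, edgeR adjusted p = 0.00246).

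NDUFS8, which carries the iron-sulfur clusters just before that of NDUFS7 in the chain, had 205 and 221 CPM in the control libraries and 103 and 89.6 CPM in the CELF2 ASO libraries. It was 2.21-fold lower (edgeR adjusted p = 4.92e-05). Both CELF2 ASO values lay below both controls.

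Among the 7 accessory subunits of the N module, 4 fell and 3 did not pass. NDUFS6 (ENSG00000145494, chromosome 5, 1801400 to 1816605, plus strand), a zinc-binding subunit added late in assembly, had 203 and 211 CPM in the control libraries and 70.4 and 63.1 CPM in the CELF2 ASO libraries. Its level was 3.11-fold lower with no overlap (log2 fold change -1.64, SE 0.08, edgeR adjusted p = 9.7e-06). NDUFA12, which takes the place of the assembly factor NDUFAF2 in the finished enzyme, had a log2 fold change of -0.96, and NDUFA6, a member of the LYR protein family, one of -0.90. NDUFA2, a small subunit with a thioredoxin-like fold, fell by 0.42 on the log2 scale (edgeR adjusted p = 0.0112). It no longer passed without control replicate 2 (adjusted p = 0.137) or when libraries were scaled by totals (adjusted p = 0.0543).

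The accessory N module subunits that did not pass were at quite different levels. NDUFS4, which joins the N and Q modules, had 31.4 and 29.9 CPM in the control libraries and 24.4 and 29.6 CPM in the CELF2 ASO libraries (log2 fold change -0.18, SE 0.11, edgeR adjusted p = 0.205), and it passed without CELF2 ASO replicate 2 (adjusted p = 0.000139) and with the correction for GC content and length (adjusted p = 0.0339). NDUFV3 had 61.5 and 70.5 CPM in the control libraries and 66.6 and 66.4 CPM in the CELF2 ASO libraries, so the groups overlapped (log2 fold change 0.01, edgeR adjusted p = 0.926). NDUFA7 had 10 to 11 counts in every library, too few for a precise estimate (log2 fold change 0.06, SE 0.39).

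Of the 11 accessory subunits of the Q module and the proximal membrane arm, 10 fell and 1 did not pass, with a median of -0.57. NDUFC1 (ENSG00000109390, chromosome 4, 139266880 to 139302551, minus strand), a small membrane subunit, had 34.3 and 35.1 CPM in the control libraries and 11.9 and 9.42 CPM in the CELF2 ASO libraries. This 3.25-fold fall (log2 fold change -1.70, SE 0.13, edgeR adjusted p = 3.71e-05) stood beside a log2 fold change of -0.45 for its partner subunit NDUFC2 (edgeR adjusted p = 0.00855). NDUFS5, which faces the intermembrane space, had 258 and 262 CPM in the control libraries and 103 and 106 CPM in the CELF2 ASO libraries, a 2.48-fold fall (edgeR adjusted p = 1.15e-05). The libraries of each group lay close together for NDUFS5 and far from the other group.

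The other members of this group were NDUFA3 (log2 fold change -1.22), NDUFA8 (-0.92), NDUFA5 (-0.62), NDUFA10 (-0.57), NDUFA1 (-0.41), NDUFA9 (-0.39) and NDUFA11 (-0.32), all past the threshold. Of these, NDUFA3, NDUFA1 and NDUFA11 lie in the membrane, and NDUFA5 and NDUFA9 sit at the Q module. NDUFA11 had 22.6 and 24.3 CPM in the control libraries and 18.7 and 18.8 CPM in the CELF2 ASO libraries, and its sign turned with the correction for GC content and length (log2 fold change 0.03, adjusted p = 0.804). The calls of NDUFA9 and NDUFA11 were also lost without control replicate 1 (adjusted p = 0.0761 and 0.0939) and without control replicate 2 (adjusted p = 0.130 and 0.247), and that of NDUFC2 without control replicate 1 (adjusted p = 0.0845). NDUFA13, also known as GRIM-19, was listed with 50 and 55 counts under the control ASO and 51 and 74 under the CELF2 ASO and did not pass (log2 fold change 0.25, SE 0.30, edgeR adjusted p = 0.502), although it passed without CELF2 ASO replicate 1 (adjusted p = 0.0357).

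The distal membrane arm, where the NDUFB subunits surround the far proton pumps, had 10 falls among 12 accessory subunits and a median of -0.66. NDUFB10 (ENSG00000140990, chromosome 16, 1959508 to 1961975, plus strand), a disulfide-stabilized subunit on the intermembrane side, had 284 and 281 CPM in the control libraries and 82.4 and 100.4 CPM in the CELF2 ASO libraries. It was 3.09-fold lower with wide separation (log2 fold change -1.63, SE 0.10, edgeR adjusted p = 1.92e-05). NDUFB2 was 2.38-fold and NDUFB7 2.14-fold lower (edgeR adjusted p = 4.09e-05 and 0.000132). NDUFAB1, the mitochondrial acyl carrier protein that is also a subunit of the complex, had 65.3 and 72.6 CPM in the control libraries and 39.9 and 34.4 CPM in the CELF2 ASO libraries (log2 fold change -0.89).

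Smaller falls in the distal arm were called for NDUFB4 (log2 fold change -0.78), NDUFB11 (-0.68), NDUFB3 (-0.64), NDUFB9 (-0.57), NDUFB1 (-0.54) and NDUFB6 (-0.35). NDUFB6 lost its call without control replicate 1 (adjusted p = 0.105) or control replicate 2 (adjusted p = 0.181). NDUFB8 had 8.79 and 9.29 CPM in the control libraries and 7.61 and 5.32 CPM in the CELF2 ASO libraries, below the controls in both but short of the threshold (log2 fold change -0.48, SE 0.19, edgeR adjusted p = 0.061). It passed without CELF2 ASO replicate 1 (adjusted p = 3.1e-06), without a filter (adjusted p = 0.00502) and with the replicate number as a block (adjusted p = 0.043). NDUFB5 had 11 and 12.4 CPM in the control libraries and 9.63 and 11.5 CPM in the CELF2 ASO libraries, which overlapped (log2 fold change -0.16, edgeR adjusted p = 0.381), and it passed without CELF2 ASO replicate 2 (adjusted p = 0.0395).

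Assembly factors build the complex and are absent from the finished enzyme. Of 8 members of this kind, 7 fell and 1 did not pass, 4 of them by at least 2-fold, with a median of -0.89. NDUFAF5 (ENSG00000101247, chromosome 20, 13784950 to 13821582, plus strand), which hydroxylates an arginine of NDUFS7, had 16.8 and 16.4 CPM in the control libraries and 5.66 and 4.48 CPM in the CELF2 ASO libraries. It showed the largest fall of the 46 members, 3.26-fold (log2 fold change -1.71, SE 0.15, edgeR adjusted p = 6.93e-05). NDUFAF8 (ENSG00000224877, chromosome 17, 81239239 to 81241281, plus strand), its partner protein, had 66.7 and 66.8 CPM in the control libraries and 27.6 and 20.2 CPM in the CELF2 ASO libraries, 2.79-fold lower (SE 0.14, edgeR adjusted p = 9.51e-05). The enzyme, its partner and its substrate NDUFS7 were all among the 8 largest falls, which was seen after ranking and was not tested. Other partners differed, as NDUFC1 (-1.70) and NDUFC2 (-0.45) or NDUFAF3 (-1.53) and NDUFAF4 (-0.33). For NDUFS7, 49.1% of exon bases overlap other genes.

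NDUFAF3 (ENSG00000178057, chromosome 3, 49020459 to 49023495, plus strand), which binds early Q module intermediates, had 149.9 and 152 CPM in the control libraries and 52.2 and 52.4 CPM in the CELF2 ASO libraries. The libraries of each group nearly coincided, and the fall was 2.89-fold (log2 fold change -1.53, SE 0.07, edgeR adjusted p = 7.28e-06). NDUFAF4, which works with NDUFAF3, had 16 and 17.7 CPM in the control libraries and 13 and 13.9 CPM in the CELF2 ASO libraries. This 1.26-fold difference barely passed (edgeR adjusted p = 0.0425), and its call was lost without control replicate 1 (adjusted p = 0.101) or control replicate 2 (adjusted p = 0.315), under scaling by totals (adjusted p = 0.143), with DESeq2 (adjusted p = 0.0913), with protein-coding genes only (adjusted p = 0.0931), with a 1 CPM filter (adjusted p = 0.0662) and with the replicate number as a block (adjusted p = 0.0532).

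NDUFAF1, which helps build the proximal membrane arm, had 15.9 and 16.3 CPM in the control libraries and 8.04 and 7.70 CPM in the CELF2 ASO libraries, 2.04-fold lower (edgeR adjusted p = 0.000256). NDUFAF2, a relative of NDUFA12, had 51.8 and 53.1 CPM in the control libraries and 32.8 and 29.2 CPM in the CELF2 ASO libraries, 1.69-fold lower (edgeR adjusted p = 0.000299). NDUFAF7, a methyltransferase, had 11.6 and 9.76 CPM in the control libraries and 7.03 and 5.90 CPM in the CELF2 ASO libraries, 1.65-fold lower (edgeR adjusted p = 0.00599). In none of these 3 did the groups overlap. NDUFAF6 was the exception among the assembly factors, with 23.5 and 23.9 CPM in the control libraries between the 26.4 and 19.9 CPM of the CELF2 ASO libraries (log2 fold change -0.03, SE 0.14, edgeR adjusted p = 0.872), and its sign turned with library totals alone (0.09). Without CELF2 ASO replicate 1 it passed as lower (adjusted p = 0.033).

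NDUFA4, named for complex I but now counted as a subunit of complex IV (cytochrome c oxidase), had 65.8 and 66.9 CPM in the control libraries and 46.4 and 48.8 CPM in the CELF2 ASO libraries. It was 1.39-fold lower (log2 fold change -0.48, SE 0.07, edgeR adjusted p = 0.00119). Without NDUFA4 and the assembly factors, 29 of 37 subunits were lower and 1 was higher, with a median of -0.62.

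Some rows may hold reads of other genes. The exons of 25 members overlap exons of another annotated gene in GENCODE 29, and for 19 members the overlap covers at least 10% of their exon bases. No strand setting was given, so reads of overlapping genes cannot be told apart. The overlap was 49.1% for NDUFS7, 22.4% for NDUFS3, 21.7% for NDUFAF3, 18.5% for NDUFC1 and 11.7% for NDUFS1, and 0 for NDUFS6, NDUFB10, NDUFS5, NDUFAF5 and NDUFAF8. Of the 27 members with less overlap than 10%, 23 were lower and none was higher, with a median of -0.78, and of the other 19, 14 were lower and 1 was higher, with a median of -0.48. For 21 members named pseudogenes exist, and how the counting treated reads that map to several genes was not given.

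Per kilobase of exon (RPKM), the members spanned a wide range of levels in the control libraries. The length used was the union of all annotated exons, which can far exceed that of a transcript. For NDUFS8 it was 4523 bases against a median transcript of 572, and for NDUFV1 5057 against 1512. Ranks by RPKM therefore depend on the annotation, and NDUFV1, with the highest CPM (432), had rank 8. NDUFS5 was highest at 474 RPKM, followed by NDUFB10 at 264, NDUFB7 at 183, NDUFA1 at 147 and NDUFS6 at 143, while NDUFA7 (0.29), NDUFA13 (0.763) and NDUFV2 (1.06) were lowest. These lowest members overlap other genes by 33.5%, 21.0% and 28.4% of their exon bases, and the part of this in their levels was not tested. The order was much the same in both groups, with a Spearman rho of 0.973 over 46 genes that share libraries and lengths. NDUFA1 went from rank 4 in the control to rank 2 in the CELF2 ASO group, and 44.5% of its exon bases overlap another gene. The 37 members that were lower had a median of 66.7 CPM in the control libraries, and the 9 others had 11.7 CPM.

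Summed over the 46 genes, complex I reads were 3684 and 3793 CPM in the control libraries and 2155 and 2031 CPM in the CELF2 ASO libraries. The mean went from 3739 ± 77.3 to 2093 ± 87.8 CPM (SD, n = 2 each), 56.0% of control, and it was 58.5% without the 3 largest contributors. The groups did not overlap, and with 2 libraries against 2 an exact two-sided permutation test cannot go below p = 0.333, its value here. By role the sum ranged from 46.1% of control for the assembly factors and 50.1% for the Q module core to 77.3% for the N module core.

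Of the 7 subunit genes of mitochondrial DNA, 2 were lower, 2 were higher and 3 were not past the threshold. That is 28.6% in each direction, near the 27.9% lower and 27.5% higher over all genes tested. The 7 genes summed to 13542 and 13435 CPM in the control libraries and 14339 and 14879 CPM in the CELF2 ASO libraries, 108% of control. Reads of mitochondrial subunits per read of a nuclear member were 3.68 and 3.54 under the control ASO and 6.65 and 7.32 under the CELF2 ASO, with no overlap (exact two-sided permutation p = 0.333, the smallest possible). Within the 7, MT-ND3 and MT-ND2, parts of the proximal membrane arm, were 1.64-fold and 1.47-fold lower (edgeR adjusted p = 0.000463 and 0.000596). MT-ND6 was 1.73-fold and MT-ND5, a distal pump subunit, 1.32-fold higher (edgeR adjusted p = 0.000109 and 0.00238), and the call of MT-ND5 was lost without control replicate 1 (adjusted p = 0.11) or control replicate 2 (adjusted p = 0.0973). MT-ND1, MT-ND4 and MT-ND4L did not pass, with log2 fold changes of 0.18, 0.08 and 0.03. MT-ND1 passed as higher under scaling by totals (adjusted p = 0.0109), with protein-coding genes only (adjusted p = 0.029), with a 1 CPM filter (adjusted p = 0.0481) and without CELF2 ASO replicate 1 (adjusted p = 1.73e-08), and MT-ND4 under scaling by totals (adjusted p = 0.0392) and without CELF2 ASO replicate 1 (adjusted p = 0.0472). Under scaling by totals, and without CELF2 ASO replicate 1, 4 of the 7 were higher. The sign of MT-ND4L turned with the GC and length correction (-0.05), without a filter (-0.02) and without CELF2 ASO replicate 2 (-0.02). MT-ND6 is the one subunit encoded on the other strand of the mitochondrial genome, so without a strand setting its reads cannot be told apart from reads of the opposite transcript.

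**Figure D3:**
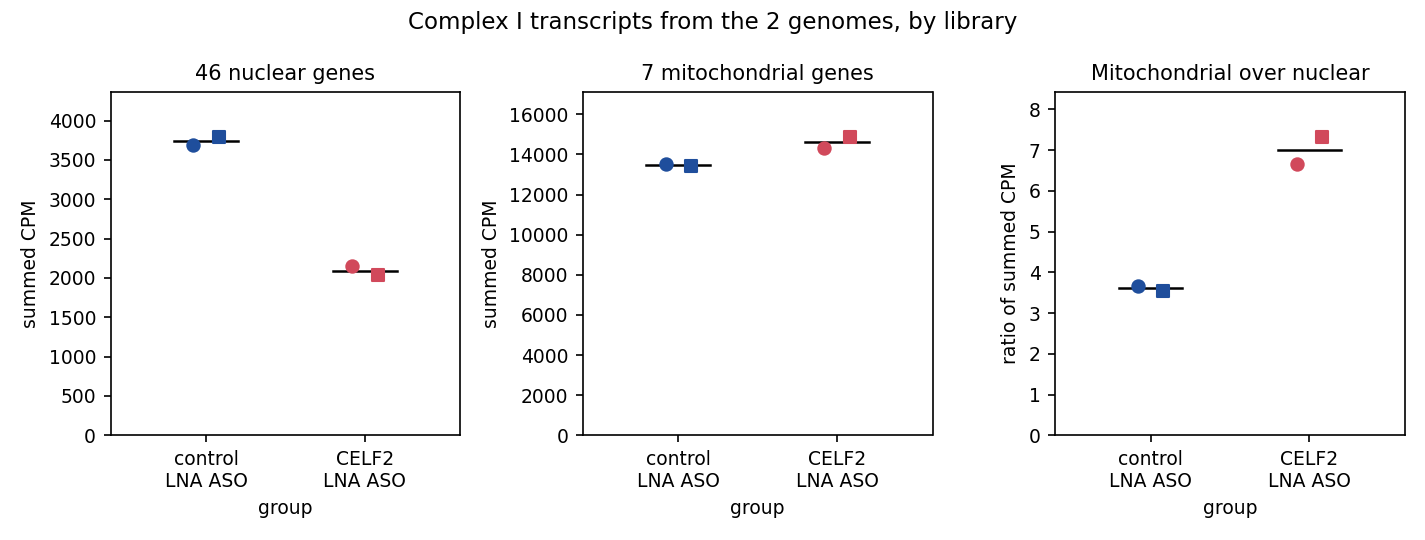
Summed CPM of the 46 nuclear genes (left) and of the 7 mitochondrial genes (middle), and their ratio (right), for each library by group, with axes from 0. Circles are replicate 1, squares replicate 2 and black bars the mean of 2 libraries. The nuclear sum is lower in both CELF2 ASO libraries, while the ratio goes from 3.68 and 3.54 to 6.65 and 7.32.

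Other genes that act on complex I were taken from lists. Of 12 assembly factors with other names, 6 were lower, none was higher and 6 did not pass, and the median was -0.22. That is 50% lower, beside 27.9% of all genes tested and 35.4% of protein-coding genes. ECSIT, which works with NDUFAF1 on the membrane arm, was 2.23-fold lower (edgeR adjusted p = 2.51e-05). DMAC1 (log2 fold change -0.75), ACAD9 (-0.60), DMAC2 (-0.60), TMEM126B (-0.50) and TMEM70 (-0.32) also fell. TMEM126B lost its call without control replicate 2 (adjusted p = 0.0685), and TMEM70 without control replicate 1 (adjusted p = 0.121) or control replicate 2 (adjusted p = 0.326). TMEM70 also lost it with the replicate number as a block (adjusted p = 0.0619), under scaling by totals (adjusted p = 0.161), with a 1 CPM filter (adjusted p = 0.073), with protein-coding genes only (adjusted p = 0.103) and with DESeq2 (adjusted p = 0.105). NUBPL, which delivers iron-sulfur clusters to the complex, did not pass, at 0.41 on the log2 scale (edgeR adjusted p = 0.058). It passed as higher under scaling by totals (adjusted p = 0.0239), with protein-coding genes only (adjusted p = 0.0277), with a 1 CPM filter (adjusted p = 0.0359) and without CELF2 ASO replicate 1 (adjusted p = 0.00534). COA1 also passed as higher under scaling by totals (adjusted p = 0.0452), with protein-coding genes only (adjusted p = 0.0378) and without CELF2 ASO replicate 2 (adjusted p = 0.0173), so that 2 of the 12 were higher under scaling by totals and with protein-coding genes only. General iron-sulfur cluster assembly genes were mixed, with 6 of 12 lower (again 50%), 1 higher and 5 not past the threshold. BOLA3 was 4.67-fold lower (edgeR adjusted p = 0.000105) and GLRX5 2.66-fold lower (edgeR adjusted p = 7.71e-05), while the chaperone HSPA9 was 1.21-fold higher (edgeR adjusted p = 0.023), a call lost without control replicate 1 (adjusted p = 0.33) or control replicate 2 (adjusted p = 0.24) and with DESeq2 (adjusted p = 0.0619). The log2 fold change of HSPA9 went from 0.27 to 0.13 when GC content and length were corrected (adjusted p = 0.157). Of the lower genes, ISCU also lost its call without control replicate 1 (adjusted p = 0.165) or control replicate 2 (adjusted p = 0.224), with the replicate number as a block (adjusted p = 0.0524), under scaling by totals (adjusted p = 0.239), with protein-coding genes only (adjusted p = 0.0918), with a 1 CPM filter (adjusted p = 0.0548) and with DESeq2 (adjusted p = 0.0631).

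Among 12 tested of 13 listed regulators of respiratory chain genes, 6 were lower and none higher, and the median was -0.28. The lower share of 50% stood beside 27.9% of all genes tested and 35.4% of protein-coding genes. Under scaling by totals 4 were lower and 1 was higher, and with the block beside the GC and length correction 9 were lower. PPARGC1B, a coactivator of mitochondrial gene expression, had 92.9 and 90.8 CPM in the control libraries and 39.5 and 33.6 CPM in the CELF2 ASO libraries. It was 2.51-fold lower (edgeR adjusted p = 2.92e-05). PPRC1, a related coactivator, was 2.05-fold lower (edgeR adjusted p = 3.77e-05). Of the DNA-binding factors named for the promoter motifs, NRF1 was at -0.11 on the log2 scale (edgeR adjusted p = 0.392), GABPA, the DNA-binding part of GABP, 0.18 (edgeR adjusted p = 0.169) and YY1 -0.16 (edgeR adjusted p = 0.123), none past the threshold, while GABPB1, the other part of GABP, fell with -0.60. These 3 depended on the setting. YY1 passed as lower with the GC and length correction (-0.34, adjusted p = 0.00572), with the block beside it (adjusted p = 0.00249) and without CELF2 ASO replicate 1 (adjusted p = 0.000671), and NRF1 without CELF2 ASO replicate 2 (-0.25, adjusted p = 0.00811). GABPA passed as higher under scaling by totals (0.30, adjusted p = 0.0397), and its sign turned with the GC and length correction (-0.13, adjusted p = 0.259). MYC (-0.56) and LRPPRC (-0.27) were also lower, and LRPPRC lost its call without control replicate 1 (adjusted p = 0.134) or control replicate 2 (adjusted p = 0.17). Both lost it under scaling by totals (adjusted p = 0.107 for MYC and 0.186 for LRPPRC) and with protein-coding genes only (adjusted p = 0.0604 and 0.076), and MYC with the GC and length correction (adjusted p = 0.0706). TFB2M, a mitochondrial transcription factor, fell with -0.84, and TFAM, which packages mitochondrial DNA, did not pass (-0.09, edgeR adjusted p = 0.482), with the sign turned under scaling by totals (0.03) and a call as lower with the block beside the GC and length correction (-0.26, adjusted p = 0.0379).

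Other mitochondrial lists also held many falls, where 27.9% of all genes tested and 35.4% of protein-coding genes were lower. Complex V (ATP synthase) had 15 of 17 genes lower (88.2%) with a median of -0.79. Mitochondrial ribosomal proteins had 66 of 77 lower (85.7%) and 1 higher with a median of -0.76, and complex III had 8 of 9 lower (88.9%) with a median of -0.53. Complex II had 3 of 4 lower (75%). It had 2 lower under scaling by totals, with a 1 CPM filter, the replicate block, protein-coding genes only or DESeq2, where SDHA lost its call. Complex IV held 3 risers, COX6C, COX7A2 and COX7A2L, beside 6 falls among 11 genes (54.5%), with a median of -0.22. Its share of risers, 27.3%, was near the 27.5% of all genes tested that were higher. COX7A2 lost its call with DESeq2 (adjusted p = 0.0553). The summed level was 54.7% of control for complex V, 57.9% for the mitochondrial ribosome, 60.3% for complex III, 62.5% for complex II and 81.9% for complex IV, beside 56.0% for complex I. Without control replicate 1 or control replicate 2, complex III had 5 and 4 lower genes, and complex IV had 1 higher gene in either case. Differences between these lists were not tested.

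Complex I transcripts are short and abundant. Over the protein-coding genes tested, the log2 fold change had a Spearman rho of 0.14 with length, -0.34 with level and -0.23 with GC content. The part of these properties in the members' change was not tested. Members had a median transcript length of 796 bases and a mean level with a median of 15.0 RPKM, against 2576 bases and 4.04 RPKM over 12749 protein-coding genes, and a GC content of 49.6% against 49.9%. Protein-coding genes were put in 5 equal bins by each property. In the bin of shortest transcripts 43.0% were lower, with a median of -0.24, and of the 35 members in that bin 29 were lower, with a median of -0.78. In the bin with the highest level, above 15.6 RPKM, 61.5% of genes were lower with a median of -0.46, and of the 23 members there 22 were lower with a median of -0.89. In the bin with the highest GC content 48.7% were lower, and 8 of 9 members were. Across the 46 members, which share libraries and depth, the log2 fold change had a Spearman rho of 0.32 with length, -0.31 with GC content and -0.46 with level (Pearson r 0.30, -0.32 and -0.41), given as descriptions. With GC content and length corrected together, 37 members were lower and none higher, with a median of -0.67.

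**Figure D4:**
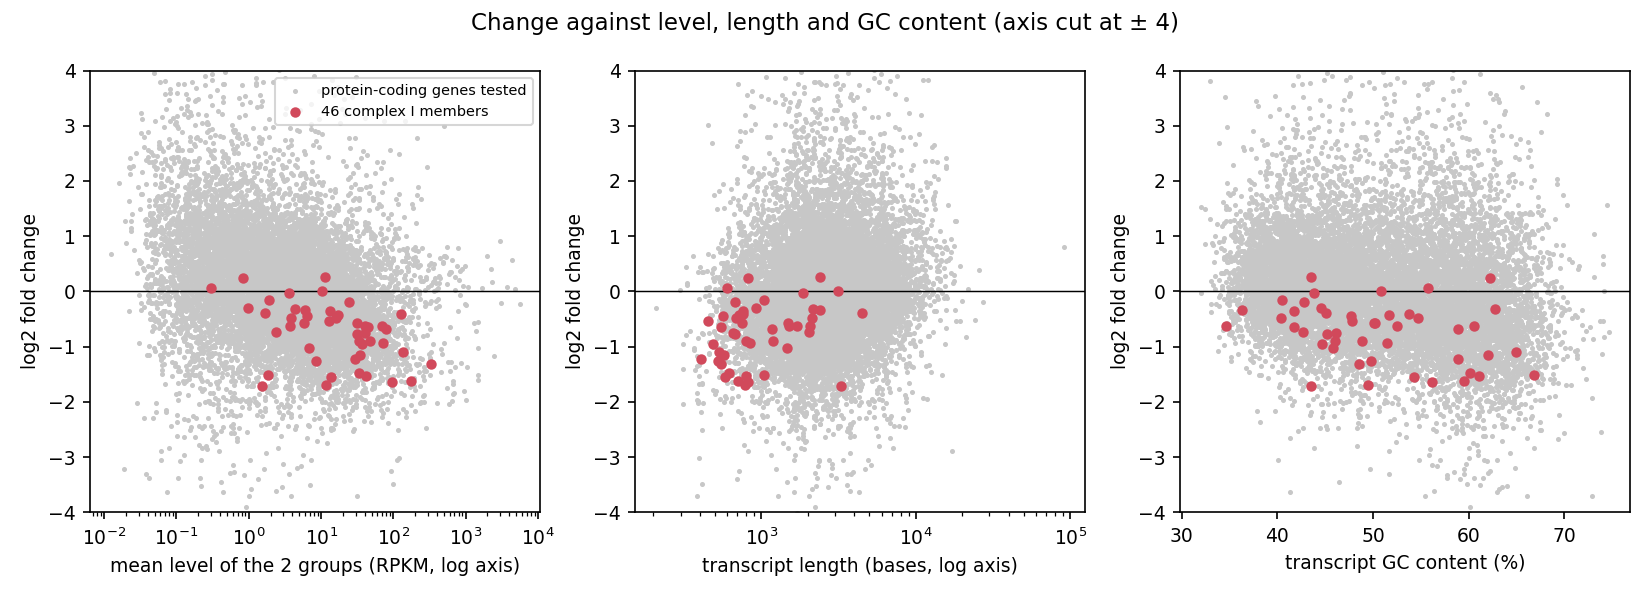
Log2 fold change against mean level of the 2 groups (RPKM, log axis), transcript length (bases, log axis) and transcript GC content (%), for the 46 members (red) over the protein-coding genes tested (grey). The vertical axis is cut at 4 in each direction, which leaves 70 of 12754 grey genes outside. Members lie mostly below 0 and mostly at short lengths, with a median of 796 bases.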

How the data were processed

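The deposited table held raw gene-level read counts (whole numbers) in 79029 rows for 4 libraries. A set of 97 rows of spike-in or reporter sequences, with 1 to 3 counts per library, were left out. The submitters' processing notes name GRCh38, the aligner STAR (2.7.11b), featureCounts (2.0.8) of the Subread package, Salmon (1.10.0) and bcl2fastq. Not given in the sources used here were annotation release, strand setting and handling of multimapped reads. Per the labels, library preparation is described both as poly(A) selection and as removal of ribosomal RNA, which retain different RNAs. Symbols were found for 61481 IDs and positions (GENCODE 29) for 57356.

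The counts were fitted with edgeR 4.0.16 under R 4.3.3 (filterByExpr with minimum count 10 and minimum total 15, TMM scaling, robust quasi-likelihood test, no covariate). SEs were taken as the absolute log2 fold change over the square root of F. RPKM used the union of exons, and promoter sequences came from RefSeq. DESeq2 1.42.0 and limma 3.58.1 (voom) served as alternatives, as did the other settings listed at the end. The counts of each pair differed beyond sampling noise (chi-square per degree of freedom 3.38 for the control and 18.5 for the CELF2 ASO pair). The members, lists, motifs and roles were chosen with earlier results of these data known. By rule, full values were given for the 8 largest falls, the risers, the nuclear core subunits and the assembly factors, while other members, CELF2 and list genes could be named with their values. Values of 1 member and of 1 list gene are not reported here, although both are in the counts.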

Additional observations from a re-analysis of the deposited data

How the results depend on the processing

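Of the 38 members that passed the test, 31 kept direction and call in all 14 settings, and NDUFA2, NDUFA9, NDUFA11, NDUFAF4, NDUFB6, NDUFC2 and NDUFS1 lost the call in at least 1. The count of lower members was 37 and became 32 with library totals alone, 34 with DESeq2 or protein-coding genes only, 36 with a 1 CPM filter, 32 to 39 leaving out each library in turn, and 23 among the 27 members with less exon overlap than 10%. The count of higher members was 1 and became 0 with DESeq2, with the GC and length correction, with no filter and among the members with less overlap, and 0 to 2 leaving out each library. The median of -0.64 became -0.52 with library totals alone, -0.78 among the members with less overlap, and -0.74 to -0.63 leaving out each library. Library totals alone moved the median of all genes from 0.04 to 0.16, and the members' median lay 0.68 below it under either scaling. A change of scaling shifts all genes nearly alike, so this difference is no test of the scaling. Signs turned for NDUFA11 (0.033 with the GC and length correction, 0.032 with the replicate block beside it), NDUFAF6 (0.090 with library totals alone, 0.022 with a 1 CPM filter, 0.055 with protein-coding genes only, -0.24 to 0.14 leaving out each library), NDUFV3 (-0.013 with RLE scaling, -0.045 with no filter, -0.079 with the GC and length correction, -0.076 with the replicate block beside it, -0.013 with DESeq2, -0.11 to 0.087 leaving out each library), NDUFA13 (-0.17 to 0.60) and NDUFA7 (-0.060 to 0.18). The cause was not tested. The replicate block gave 37 lower and 1 higher member, with NDUFAF4 lost (edgeR adjusted p = 0.0532) and NDUFB8 gained (edgeR adjusted p = 0.043). Over all genes the block gave 5402 lower and 5407 higher. Same-numbered libraries shared little (correlation of within-pair differences 0.03 over 19511 genes). With 2 libraries per group this cannot tell whether same-numbered libraries were handled together. Leaving out a library takes the spread from the other pair alone, and all genes then gave 4091 to 6105 higher and 4511 to 6218 lower. NDUFA7 left the test under the 1 CPM filter. No member symbol had several rows, so summing rows gave no other value. The restriction to protein-coding genes and the exon overlap limit were chosen after seeing the data. Depth limits NDUFA7, NDUFV2 and NDUFA13, with 10 to 90 counts per library.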
